A study of Sus scrofa with 6 samples.

Results

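Kinesins are the motor proteins that walk along or disassemble microtubules, and their transcripts were examined here in porcine 2-cell embryos with SIN3A intact or knocked down. All genes were taken whose name in the deposited table begins with KIF or KIFC followed by a digit, which gave 39 of the 17678 listed genes. One of them, KIF1BP, encodes a kinesin binding protein and no motor, and was set apart, which left 38 motors. They were divided by known function into 13 mitotic kinesins, 13 transport kinesins and 12 others.

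Porcine oocytes matured in vitro were injected at metaphase II with a non-specific siRNA (NC) or with siRNAs against SIN3A (KD), the scaffold of a histone deacetylase complex. In both groups oocytes were activated by electric pulses, held in cycloheximide and cytochalasin B, and collected as 2-cell embryos 32 h after activation. Each group had 3 replicates, and each replicate was a pool of 20 embryos. These embryos are parthenogenetic and hold no paternal genome, the ovaries came from crossbred slaughterhouse pigs, and whether same-numbered NC and KD pools shared a batch of oocytes is not stated in the sources used here. RNA was captured on oligo(dT) beads, so a level is that of polyadenylated transcript in a whole pool, in which fewer embryos expressing a gene and less transcript per embryo cannot be told apart.

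SIN3A, the targeted gene, kept 8.22% of its NC mean in KD embryos, and every KD library was below every NC library. Of the 9 oocyte and embryo markers found, such as GDF9 and BMP15, all were present in every library, with summed values of 67747 to 75054 in NC and 67027 to 82328 in KD. Of 8 cumulus and granulosa cell markers found, VCAN was at 735 or more in every library. The other 7, none above 23.4, together summed to 37.1 to 41.7 in NC and 29.3 to 56.1 in KD. Of these 7, PTX3, PTGS2, TNFAIP6 and INHBA had lower means in KD, and STAR, CYP11A1 and CYP19A1 higher ones. PTX3 and PTGS2 were at 0 in all KD libraries, but at no more than 3.13 in NC. The spacing of the low values put the depth at an estimated 7.81M reads in the shallowest library, NC replicate 2, and 15.8M in the deepest, KD replicate 2.

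A mitotic spindle needs several kinesins with separate tasks. KIF11, a kinesin-5, pushes the poles apart by sliding antiparallel microtubules, and KIF15 can share that work. KIFC1 pulls in the opposite direction, KIF2C takes microtubule ends apart at centromeres, KIF18A and KIF4A dampen chromosome and microtubule movements, and KIF23, KIF20A, KIF20B and KIF14 act at the midzone and in cytokinesis. Transport kinesins carry cargo instead: KIF5 motors move organelles and mRNA, KIF3 motors serve cilia and vesicles, and KIF1 and KIF13 motors carry vesicles. Before the embryonic genome is activated, the transcripts for the first divisions are largely those stored by the oocyte.

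Promoters of cell cycle genes often hold a cell cycle genes homology region, which binds MuvB complexes, near their start. Its letters TTTGAA were searched on both strands in the 300 bases from 250 before to 50 after each RefSeq gene start of Sscrofa11.1. Matches were found in 5 of 13 mitotic kinesins (38.5%), in 1 of 12 transport kinesins with a RefSeq entry and in 2 of 12 others, against 14.5% of 20615 promoters. The related letters TTTAAA were found in 1 mitotic, 2 transport and 3 other kinesins, against 12.6% of promoters and 10.2% of those of tested genes. CCAAT, the letters bound by NF-Y, occurred in 10 mitotic (76.9%), 5 transport and 7 other kinesins, against 35.7% of promoters and 36.2% of those of tested genes. Neighbouring matches to these motifs can share at most 1 letter. The windows of 30 bases below are those of the 5 mitotic kinesins, in the direction of the gene, with the match in capitals, because they are the mitotic motors whose levels are compared below and include KIF11.
KIF11, chr14:104125859-104125888, plus strand: acttggtcttctttTTCAAAttgaggcgcc
KIF18A, chr2:32244093-32244122, plus strand: cgctgaggaagctggcttaggTTTGAAtct
KIF18B, chr12:18426812-18426841, plus strand: cgacccggctaaTTTGAAcacgcggcgcgg
KIF20B, chr14:101512622-101512651, plus strand: cccgcccccagaTTTGAAagcttctcccgg
KIF23, chr1:167239976-167240005, plus strand: ctgattgggtggTTTGAAatgcgccgggcg
The match of KIF11 reads TTCAAA because it lies on the opposite strand and it begins 35 bases into the gene. That of KIF18B begins 4 bases before the gene start. A match describes these letters only and is not evidence of binding.

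Stored oocyte transcripts are often kept with short poly(A) tails and lengthened later through cytoplasmic polyadenylation elements, which bind CPEB near the 3' end. The letters TTTTAT of such an element were searched on the transcript strand in the last 100 bases of the longest RefSeq mRNA. They were found in 7 of 13 mitotic kinesins (53.8%), in 2 of 12 transport kinesins, KIF3A and KIF5B, and in 3 of 12 others, KIF2A, KIF7 and KIF21A. The share was 11.9% over 20622 RefSeq genes and 14.9% over the 9757 of them that were tested in these embryos. The polyadenylation signal AATAAA, which cannot overlap TTTTAT, was found in 9 mitotic (69.2%), 8 transport (66.7%) and 8 other kinesins (66.7%). Its share was 51.6% of RefSeq genes and 61.4% of the tested ones. The last exons of the 7 mitotic kinesins carry the motif in these 30 bases, shown because they are the letters counted here.
KIF15, chr13:28041092-28041121, plus strand: ctgtaataaaatcTTTTATttttgaaacaa
KIF18A, chr2:32331336-32331365, plus strand: taaagatgtagaTTTTATaatgcttgcttt
KIF18B, chr12:18448169-18448198, plus strand: ataggtatatttTTTTATtataattaataa
KIF20B, chr14:101594643-101594672, plus strand: tatacattgctaTTTTATaatagtataatt
KIF23, chr1:167281172-167281201, plus strand: agttgtttcggaTTTTATacgtgtatactt
KIF2C, chr6:166556800-166556829, minus strand: tgctattttctgTTTTATgtgtttatacat
KIFC1, chr7:29713685-29713714, plus strand: tttaaataaaggTTTTATtagcggttgccc
The match nearest to the mRNA end, which is the one shown, began between 17 bases before it in KIF15 and 67 bases before it in KIF23. KIF15 held another match 62 bases before the end, and the other 6 genes held 1 each. KIF11 held the AATAAA but not the TTTTAT letters in this window. Other letters of such elements and other parts of the mRNA were not searched, so its lack of an element is not shown. The mRNA ends are those of the RefSeq models and were not measured here.

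In NC embryos the mitotic kinesins were the more abundant group. To compare genes, the deposited normalized abundance was divided by the length of the longest RefSeq mRNA, and levels of this kind are given per kb. KIF17 had no RefSeq entry and was left out of these levels. The median level of the 12 mitotic kinesins with a mean abundance of at least 10 was 377 per kb, with a range from 71.2 for KIF11 to 1027 for KIF23. Transport kinesins had a median of 115 per kb and the other kinesins one of 52.0 per kb, and the median of all 9757 tested genes with a RefSeq length was 60.1 per kb. The gap depends on the length used: per kb of coding length the medians were 546 for mitotic, 348 for transport and 69.96 for other kinesins, against 134 for all genes, and per kb of mean mRNA length they were 396, 127 and 55.7, against 67.1. Summed over members, mitotic kinesins reached 4609 ± 228 per kb (SD, n = 3) and transport kinesins 2043 ± 41.3 per kb (SD, n = 3). The ratio of the sums was 2.32, 2.29 and 2.16 in NC, with libraries listed here and throughout in the order of replicates 1 to 3. All motors together held 0.346% to 0.362% of the summed abundance of an NC library.

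**Figure D1:**
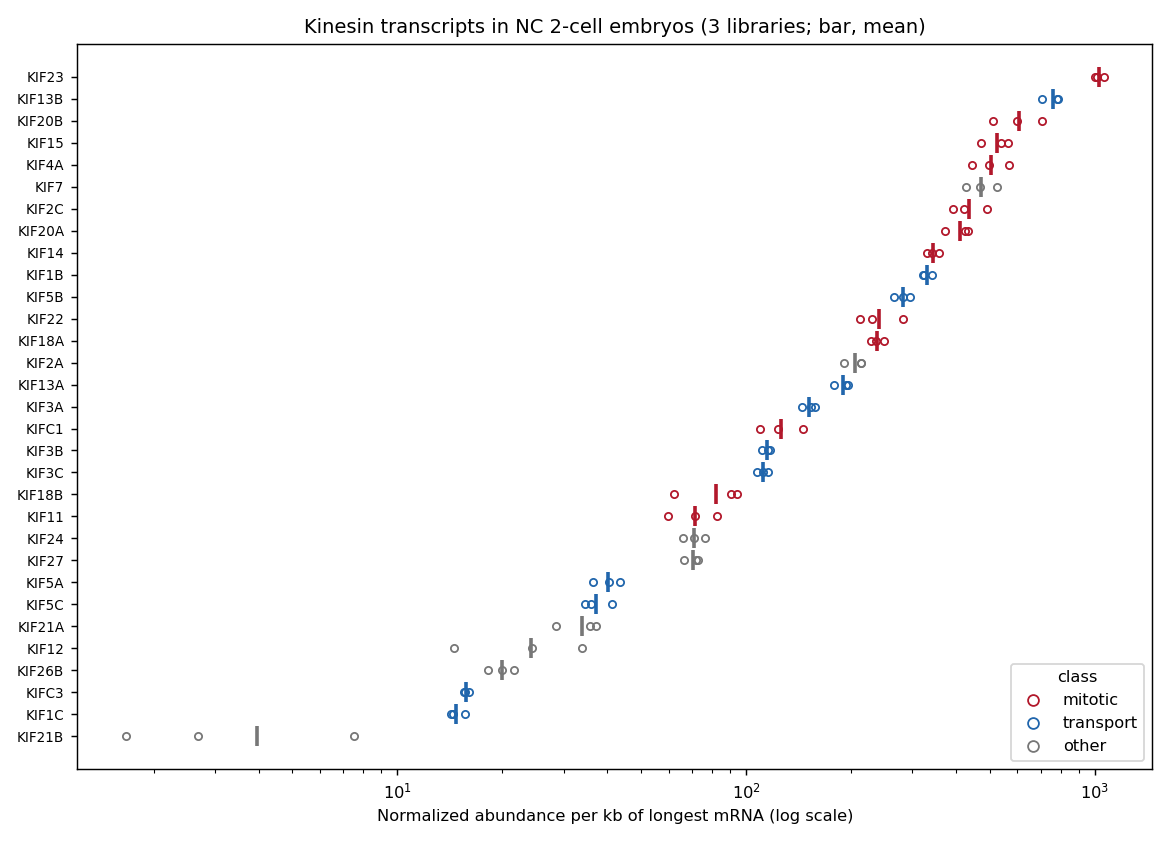
Levels of 31 kinesin transcripts in NC 2-cell embryos, as normalized abundance per kb of the longest mRNA on a log axis. Circles are the 3 NC libraries, bars their means and colours the class. Mitotic kinesins fill most of the upper part of the order, KIF23 is highest at 1027 per kb, and KIF11 lies far below the other spindle motor KIF15.

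At the head of the order stood KIF23, the motor subunit of centralspindlin, with 1027 ± 29.3 per kb (SD, n = 3), above 95% of the tested genes. It was followed by the transport motor KIF13B with 757 ± 45.7 per kb, which was below KIF23 in every NC library. From KIF13B down through KIF20B, KIF15, KIF4A, KIF7 and KIF2C to KIF20A, each neighbour overlapped the next in its 3 NC values. In 21 of the 30 neighbouring pairs of the whole order the NC values overlapped, so most places in the order are not separated from the next. Of the 9 separated pairs, 6 kept their order without overlap per kb of coding length and 7 per kb of mean mRNA length, among them KIF23 above KIF13B, KIF20A above KIF14 and KIF27 above KIF5A under both. KIF18A lay above KIF2A per kb of the longest mRNA but below it with both other lengths, at 304 against 742 per coding kb. KIF13A lay above KIF3A per kb of the longest mRNA and below it per coding kb, and with the mean mRNA length their values overlapped. KIF1B lay above KIF5B per kb of the longest or mean mRNA, and these overlapped per coding kb. The median coefficient of variation between NC libraries was 12.0% for mitotic, 4.93% for transport and 9.43% for other kinesins, against 13.1% over all tested genes. The highest among mitotic kinesins was 21.3%, for KIF18B. All tested genes were not matched to the kinesins in abundance, so these values do not rank their spread.

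Within families, 1 member usually made up most of the level. KIF5B, the ubiquitous kinesin-1, held 78.4% ± 0.467 of the summed KIF5 level per kb in NC (SD, n = 3), while the neuronal forms KIF5A and KIF5C held 11.2% ± 0.752 and 10.4% ± 0.488. KIF15, a kinesin-12, and KIF11, a kinesin-5, are not of 1 family, and KIF15 held 88.0% ± 1.72 of this pair (SD, n = 3). KIF13B held 79.9% ± 1.63 of the KIF13 pair and KIFC1 88.6% ± 1.36 of the kinesin-14 group. KIF2C, the centromeric depolymerase, held 67.6% ± 2.62 of the kinesin-13 group, with KIF2A at 32.2% ± 2.59 and the testis-linked KIF2B at 0.195%. This order turned with coding length, by which KIF2A held 56.0% ± 2.89 and KIF2C 43.9% ± 2.90, while with mean mRNA length KIF2C held 57.8% ± 2.90 (SD, n = 3). The kinesin-2 motors KIF3A, KIF3B and KIF3C were the even case, with 40.2% ± 1.64, 30.3% ± 0.780 and 29.5% ± 1.24.

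Of the motors, 6 had a mean abundance under 10 and were not tested. KIF25, KIF2B, KIF19, KIFC2 and KIF26A had values from 0 to 13.2 over the 6 libraries. KIF9, a ciliary kinesin, had values of 12.5, 13.2 and 8.53 in NC and of 4.87, 2.16 and 7.67 in KD, so its KD values were all below its NC values at a level of a few reads. Among genes outside the name rule, the mitotic kinesin CENPE had means of 1242 ± 234 in NC and 1270 ± 93.7 in KD (SD, n = 3). Rows that the table leaves unnamed and a reference table of identifiers assigns to KIF16B and KIF1A had NC means of 769 ± 80.5 and 4.63 ± 0.505 (SD, n = 3).

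The comparison of KD with NC asked whether embryos short of SIN3A held other amounts of these motors. No kinesin passed an adjusted p of 0.05 in the limma fit across all 11986 tested genes, of which 0.159% did. At an unadjusted p below 0.05 stood 6 of the 32 tested motors (18.8%), against 4.61% of all tested genes. Of these, KIF11, KIFC3 and KIF14 had higher means in KD, where 2.24% of all genes stood, and KIF2C, KIF27 and KIF2A lower ones, where 2.38% stood. With KD replicate 2 left out, 1 motor remained at an unadjusted p below 0.05, beside 426 of the 11986 tested genes. With KD replicate 3 left out 3 remained, beside 743 of all tested genes, and without the variance trend 3, beside 622. The NC and KD values did not overlap in 7 motors (21.9%), the 6 named and KIF5A, against 9.79% of all tested genes. Higher in KD were 4, against 4.85% of all genes, and lower were 3, against 4.94%.

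**Figure D2:**
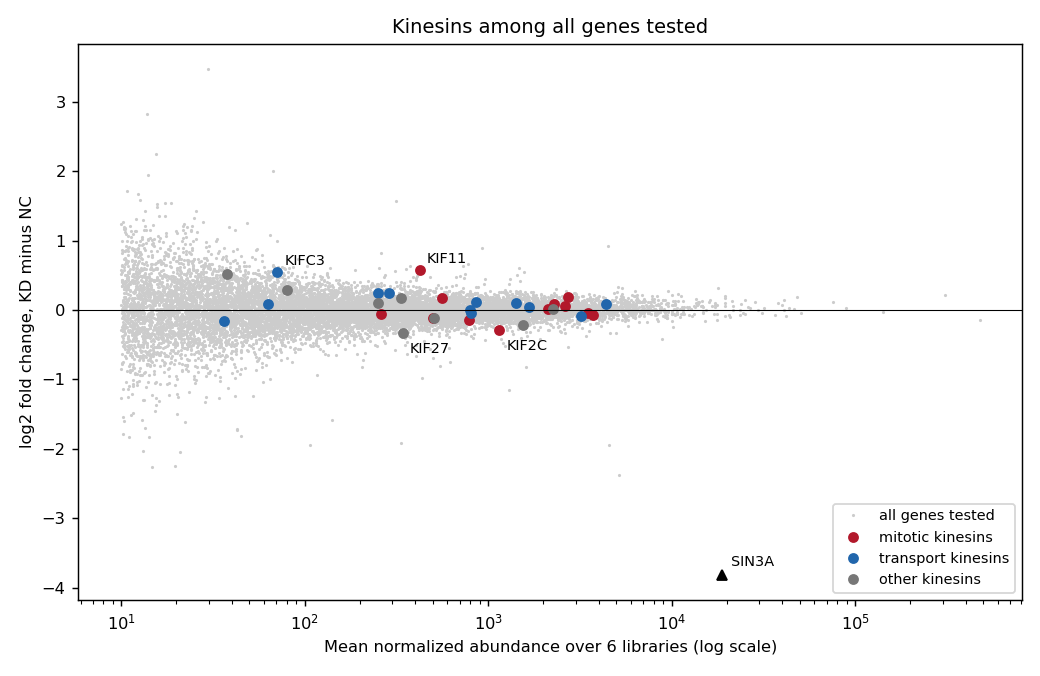
Mean normalized abundance over the 6 libraries (log axis) against the log2 fold change, KD minus NC, of all tested genes in grey and of the kinesins in colour by class. The kinesins lie within the cloud of all genes, at values between -0.33 and 0.58, while SIN3A is at -3.81.

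KIF11 (ENSSSCG00000010471, chromosome 14, 104125839 to 104177381, 22 exons) showed the largest log2 fold change among the 32 tested motors. Its normalized abundance was 395, 285 and 341 in NC and 476, 487 and 551 in KD. Every KD library was above every NC library, and the KD mean was 148% of the NC mean. On the log2(value + 1) scale, used for all fold changes, the difference was 0.58 (standard error, SE, 0.14 and 95% confidence interval, CI, 0.29 to 0.87, limma adjusted p = 0.227). Of all tested genes, 33 had a lower p, which places KIF11 at rank 34. By exact permutation of the libraries the two-sided p was 0.1, and 3 against 3 libraries cannot give a smaller one. The adjusted p of limma was 0.0830 with the replicate number as a block. It was 0.0177 after adjustment for GC content and mRNA length over the 9757 genes with a RefSeq length, which was chosen after seeing the data, and 0.00715 with both, where the log2 fold change was 0.63. Without NC replicate 2, the lowest of the NC libraries, the log2 fold change was 0.46 with an adjusted p of 0.999 from limma.

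Relative to KIF15, the motor that can share its work, KIF11 stood at ratios per kb of 0.146, 0.111 and 0.151 in NC and of 0.182, 0.179 and 0.222 in KD. KIF15 itself had values of 2761, 2623 and 2304 in NC and of 2679, 2792 and 2543 in KD. These overlapped, with a log2 fold change of 0.06 (95% CI -0.13 to 0.26, limma adjusted p = 0.997). TPX2, the spindle factor that holds both motors on microtubules, had means of 4393 ± 447 in NC and 4435 ± 180 in KD (SD, n = 3).

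KIF14, a midbody kinesin of cytokinesis, was at 2637, 2520 and 2439 in NC and at 2884, 2923 and 2843 in KD. The groups did not overlap, but the difference was small, with a log2 fold change of 0.19 (95% CI 0.01 to 0.37, limma adjusted p = 0.997). KIF23 had 3736, 3778 and 3943 in NC and 3522, 3333 and 4053 in KD, and its groups overlapped. KIF20B, which acts late in cytokinesis, spread more within NC, from 3004 in replicate 3 to 4130 in replicate 1, and lay at 3668, 3086 and 3529 in KD. The values of KIF20A, the midzone motor that brings the Aurora B complex there, were 2233, 2192 and 1921 in NC and 2188, 2292 and 1929 in KD. None of these 3 kinesin-6 members had a log2 fold change beyond -0.08 to 0.01, and their shares of the family overlapped between groups, with KIF23 at 50.4% ± 3.84 in NC and 49.4% ± 2.92 in KD (SD, n = 3). In KIF20A, 28.3% of the longest mRNA overlaps exons of CDC23 and in KIF23 9.49% overlaps another gene, so reads of these stretches could be split between genes.

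KIF2C, the kinesin-13 that corrects attachments at centromeres (ENSSSCG00000003931, chromosome 6, 166556765 to 166577904), had values of 1429, 1142 and 1223 in NC and of 1118, 981 and 995 in KD. All KD values were below all NC values, by little in the case of KD replicate 1. The log2 fold change was -0.29 (SE 0.11, 95% CI -0.52 to -0.06, limma adjusted p = 0.922). Exons of another gene overlap 14.7% of its longest mRNA. KIF2A, its relative at spindle poles and in neurons, had 1723, 1719 and 1535 in NC and 1500, 1400 and 1401 in KD. These groups did not overlap either, at a log2 fold change of -0.21 (95% CI -0.41 to -0.01, limma adjusted p = 0.997), and 18.0% of its longest mRNA overlaps DIMT1. The family shares overlapped between groups, with KIF2C at 67.6% ± 2.62 of it in NC and 66.5% ± 0.604 in KD (SD, n = 3).

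The remaining mitotic kinesins overlapped between the groups. KIF4A, a chromokinesin that works with PRC1 at the midzone, had 2513, 2196 and 1970 in NC and 2475, 2442 and 2152 in KD. KIF18A, which limits chromosome oscillation, had 866, 792 and 820 in NC and 789, 648 and 810 in KD. Its relative KIF18B, which acts on astral microtubules, had 202, 307 and 294 in NC and 284, 261 and 218 in KD. The order of the libraries thus differed between these genes, and KD replicate 2 was the lowest KD library for KIF18A but not for KIF18B. KIF22, a chromokinesin that moves chromosome arms outward, had 451, 598 and 487 in NC and 523, 574 and 351 in KD. KIFC1, a minus-end-directed spindle motor, had 456, 512 and 606 in NC and 595, 588 and 582 in KD. In KIFC1 the SD was 6.33 over the 3 KD libraries and 75.8 over the 3 NC libraries. The log2 fold changes of these 5 genes ran from -0.15 for KIF18A to 0.17 for KIFC1.

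**Figure D3:**
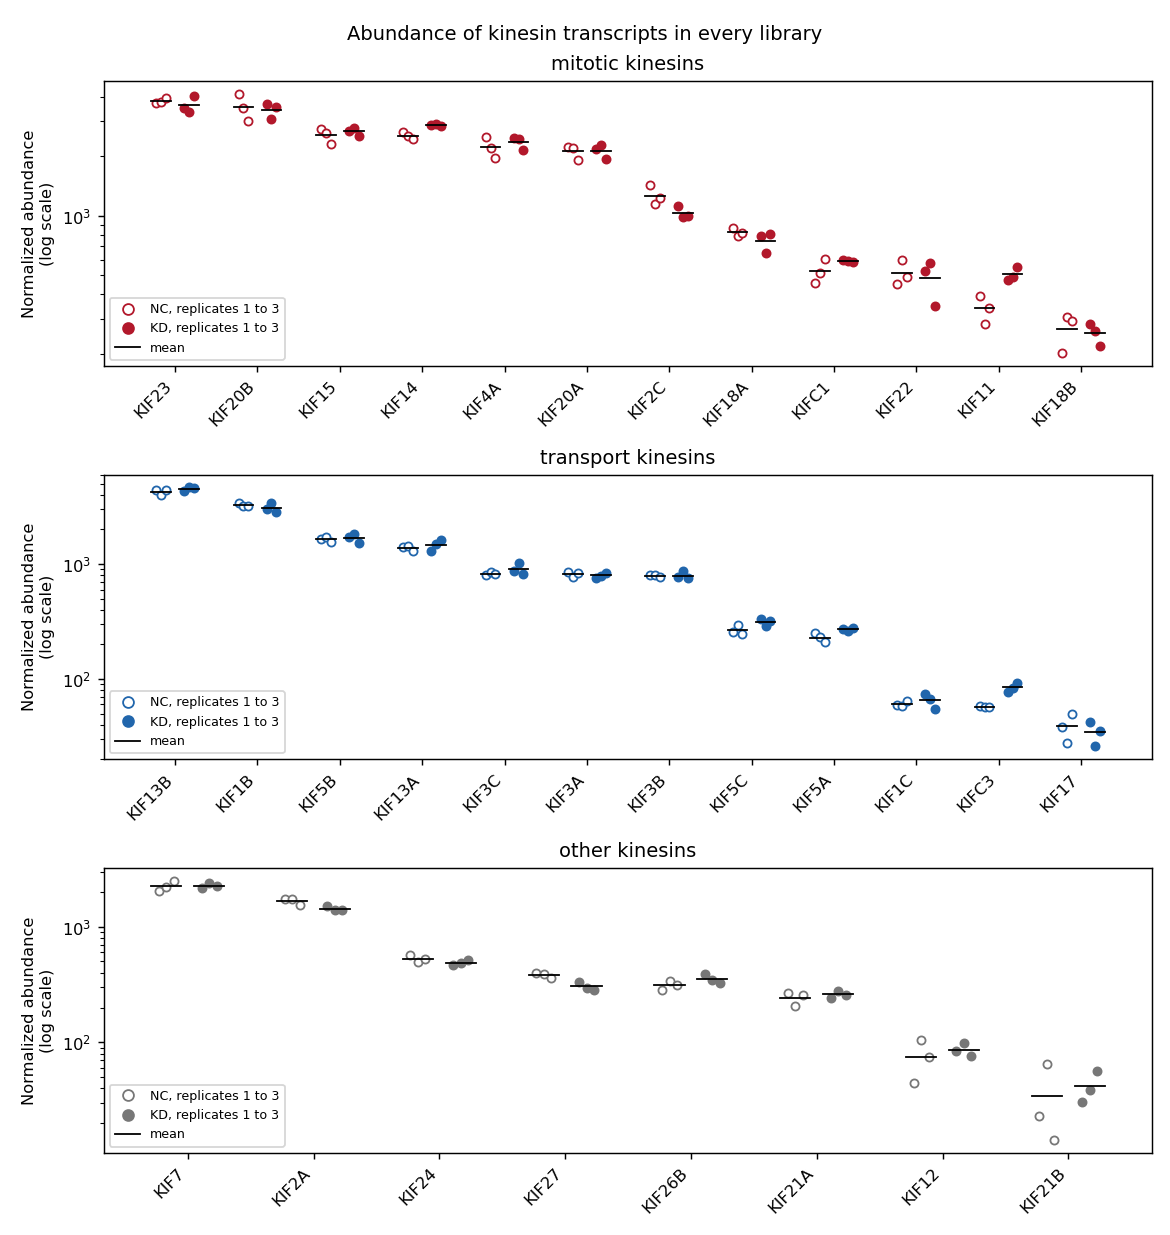
Normalized abundance (log axis) of the 32 tested kinesins in each library, in 3 panels by class. Open circles are NC and filled circles KD replicates 1 to 3 from left to right, and lines are means. KIF11, KIF14, KIFC3 and KIF5A have all KD points above the NC points, and KIF2C, KIF2A and KIF27 all below.

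Among the 12 tested transport kinesins, KIFC3 showed the largest log2 fold change. This minus-end-directed motor of epithelial junctions and vesicles (ENSSSCG00000002812, chromosome 6, 19659987 to 19696104) had 58.6, 56.9 and 56.6 in NC and 76.4, 84.2 and 92.9 in KD. The groups were well apart at a low level, with a log2 fold change of 0.55 (SE 0.22, 95% CI 0.09 to 1.01, limma adjusted p = 0.997). KIF5A had 249, 231 and 208 in NC and 272, 262 and 278 in KD, without overlap, at 0.24 (95% CI -0.05 to 0.54). KIF5C was at 256, 293 and 245 in NC and at 330, 291 and 318 in KD, with an overlap between NC replicate 2 and KD replicate 2. The main kinesin-1, KIF5B, had 1649, 1733 and 1553 in NC and 1716, 1828 and 1540 in KD, and its share of the family was 76.0% ± 2.24 in KD (SD, n = 3) against the 78.4% in NC.

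The 2 most abundant transport motors had overlapping groups. KIF13B, a vesicle motor, had 4407, 3978 and 4442 in NC and 4337, 4643 and 4618 in KD, and its log2 fold change was 0.09 (95% CI -0.09 to 0.26). KIF1B, which carries mitochondria and vesicles, had 3413, 3226 and 3211 in NC and 3034, 3417 and 2862 in KD, at a log2 fold change of -0.08 (95% CI -0.28 to 0.11). For the kinesin-2 motors KIF3A, KIF3B and KIF3C the log2 fold changes were -0.04, 0.00045 and 0.11, with means of 796, 793 and 898 in KD. Their partner KIFAP3 had means of 249 ± 21.1 in NC and 251 ± 14.6 in KD (SD, n = 3). KIF13A, KIF1C and KIF17 had log2 fold changes of 0.10, 0.09 and -0.16, each with overlapping groups.

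Of the other kinesins, KIF27, a relative of KIF7 linked to motile cilia (ENSSSCG00000021571, chromosome 10, 31026133 to 31117900), had 396, 389 and 359 in NC and 334, 296 and 283 in KD. All KD values were lower, with a log2 fold change of -0.33 (SE 0.13, 95% CI -0.60 to -0.05, limma adjusted p = 0.997). KIF7, the ciliary regulator of Hedgehog signalling, was the most abundant of this class, with 2027, 2219 and 2488 in NC and 2154, 2399 and 2228 in KD. Its groups overlapped, and the log2 fold change was 0.01 (95% CI -0.19 to 0.22). KIF24, a kinesin that keeps cilia from forming, had 569, 492 and 527 in NC and 470, 485 and 515 in KD. KIF26B, KIF21A, KIF12 and KIF21B had log2 fold changes from 0.10 to 0.52 with overlapping groups, and KIF21B ranged from 14.3 to 64.6 within NC alone. KIF1BP, the binding protein set apart above, had means of 167 ± 21.7 in NC and 160 ± 8.88 in KD (SD, n = 3).

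**Figure D4:**
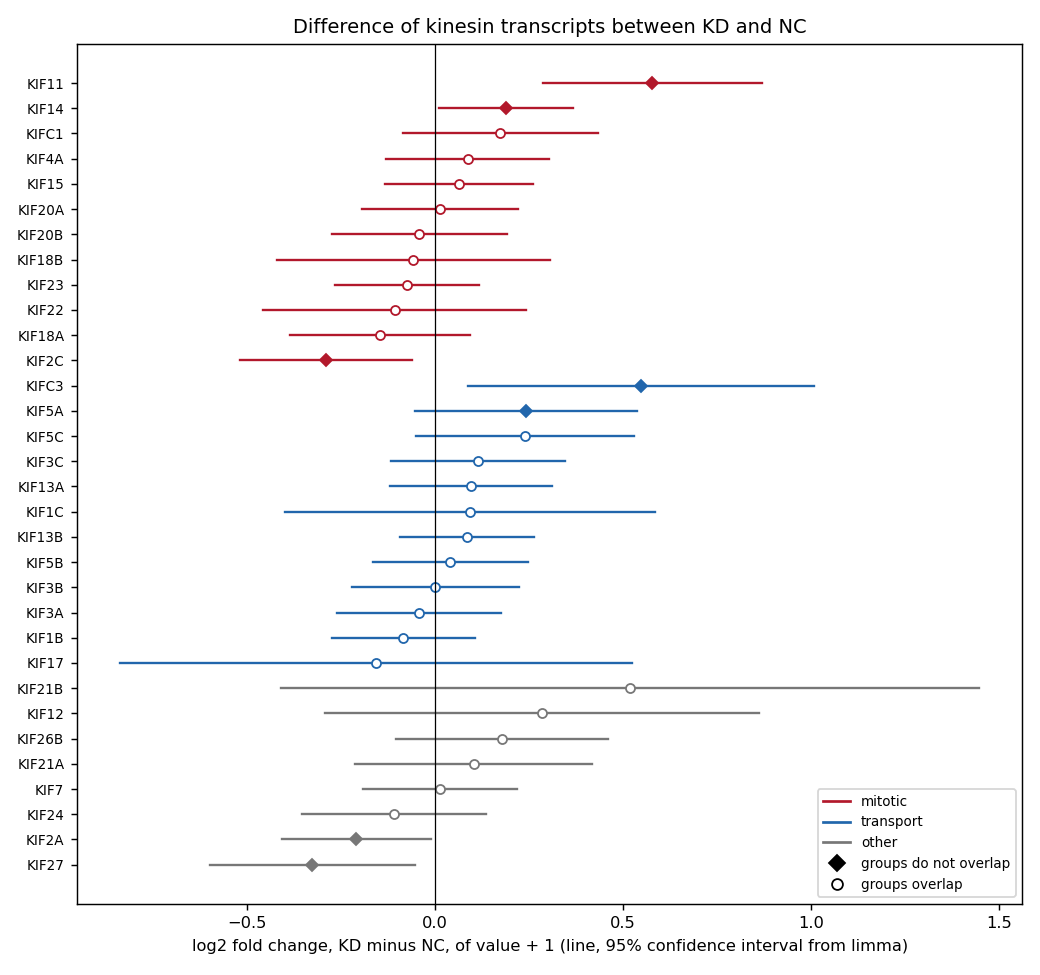
Log2 fold change, KD minus NC, of the 32 tested kinesins with its 95% confidence interval, sorted within each class. Filled diamonds mark the 7 genes whose NC and KD values do not overlap, and the mitotic kinesins spread to both sides of 0 from -0.29 for KIF2C to 0.58 for KIF11.

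As groups, the mitotic kinesins did not move in 1 direction. Their log2 fold changes were above 0 in 6 and below 0 in 6 of 12 genes, with a median of -0.01, and those of transport kinesins were above 0 in 9 and below 0 in 3 of 12, with a median of 0.09. KIF2A, named above at spindle poles, was placed with the other kinesins, so its -0.21 is not in the mitotic count. For the other kinesins the median was 0.06 over 8 genes, and over all tested genes it was 0.0026. Without KD replicate 3 the median of the mitotic kinesins was 0.09, and without KD replicate 2 that of the transport kinesins was 0.05. The median size of the log2 fold change, regardless of sign, was 0.10 for mitotic and 0.09 for transport kinesins, against 0.12 for all tested genes. In KD embryos the summed level was 4571 ± 100 per kb for mitotic and 2121 ± 87.3 per kb for transport kinesins (SD, n = 3), and both overlapped with NC. The ratio of mitotic to transport kinesins was 2.29, 2.03 and 2.16 in KD, and thus overlapped with the NC ratios. These medians and sums describe the lists and were not tested.

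Proteins that work with kinesins were read from lists of known partners. Of 13 spindle partners found and tested, none passed an adjusted p of 0.05 by limma, as 0.159% of all tested genes did, and 1 was at an unadjusted p below 0.05, where 4.61% of all tested genes stood. This was ECT2, the RhoA activator recruited by centralspindlin, with 3324, 3075 and 2856 in NC and 2822, 2405 and 2681 in KD. Its KD values were all below its NC values, with a log2 fold change of -0.23 (SE 0.09, limma adjusted p = 0.997), while RACGAP1, the other centralspindlin subunit, had means of 2862 ± 187 and 2727 ± 18.6 (SD, n = 3). ECT2 was the only 1 of the 13 without overlap between groups, where 9.79% of all tested genes stood. NUMA1, which gathers microtubules at spindle poles, had the next lowest p, with a log2 fold change of 0.24 (SE 0.13) and overlapping groups. Among 10 tested cargo partners none was at an unadjusted p below 0.05, and the log2 fold changes ran from -0.15 for the kinesin light chain KLC4 to 0.17 for PLEKHM2, the lysosomal adaptor of kinesin-1.

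Dynein, the motor that walks toward minus ends and opposes most kinesins, was measured through 22 tested subunits and cofactors. None passed the adjusted p by limma, and 1 was at an unadjusted p below 0.05, a share near the 4.61% of all tested genes. The genes of lowest p were DCTN6 and DCTN5. DCTN6, a subunit of the pointed end of dynactin, had 102, 99.3 and 138 in NC and 70.03, 71.1 and 99.9 in KD, and NC replicate 2 and KD replicate 3 overlapped. Its log2 fold change was -0.49 (SE 0.22, limma adjusted p = 0.997). Its neighbour in the complex, DCTN5, had 109, 108 and 84.0 in NC and 79.8, 75.4 and 74.7 in KD, without overlap, at -0.38 (SE 0.20). The NC and KD values did not overlap in 2 of the 22 genes, a share near the 9.79% of all tested genes. The median log2 fold change of the 22 genes was -0.08, against the 0.0026 of all tested genes.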

How the data were processed

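Libraries of poly(A) RNA from 3 NC and 3 KD pools were used, grouped by the sample labels. The authors quantified the reads by Salmon 0.14.1 against Sscrofa11.1, tested with DESeq2, and deposited a normalized signal for each Ensembl gene in a single table. Its values are comparable between libraries and are not scaled to gene length. Between 59.4% and 69.0% of the low values lay within 0.05 of a whole multiple of the estimated value of 1 read, so no counts were recovered and no count test was run. Since the origin of the pools is not given in full, p-values measure only the spread between them.

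On log2(value + 1), limma 3.58.1 (R 4.3.3) was fitted to genes whose mean reached 10, with a variance trend and Benjamini-Hochberg adjustment over all 11986 genes. Fold changes on this scale understate those of low genes. In simulated data of 12020 genes, 97.9% of genes changed 4-fold and 72.7% of those changed 2-fold were called. These were negative binomial counts with a spread set by the mean alone and equal depth, so the rates need not hold for the deposited values. Changes under 2-fold were not simulated. Single genes were compared by exact permutation with scipy 1.17.1. Lengths, promoters and mRNA ends come from RefSeq on the same build, matched by symbol for 37 of 38 motors and 81.4% of tested genes. Overlap between groups means that the ranges of the 3 values met.

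The members and lists were chosen with earlier results of these data known. Values in every library are given for tested mitotic kinesins, for the 3 highest per kb of each class, and for those with an unadjusted p below 0.05 or groups apart. Of each partner list the 2 genes of lowest p are named, and TPX2, RACGAP1, KIFAP3 and the library values of KIF5C were added after being seen. The fit was repeated with a pseudocount of 0.1 or 10, without the filter or with one at 100, with TMM-like or quantile scaling, without the trend, with robust empirical Bayes, with a replicate block and without each library. Levels were repeated with other lengths. An adjustment for GC content and length was added after seeing the data.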

Additional observations from a re-analysis of the deposited data

How the results depend on the processing

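Kinesins were called only after adjustment for GC content and length, added after seeing the data and fitted to the 9757 genes with a RefSeq length. There 1 was called, also with the replicate block, KIF11, at a log2 fold change of 0.63. All genes called were 19, and 33 with that adjustment, 54 with it and the block, 0 without the variance trend (622 at an unadjusted p below 0.05 by limma) and 11 to 19 with 1 library left out, at 12 without NC replicate 2 or 3 and 11 without KD replicate 2. Kinesins at an unadjusted p below 0.05 were 6, and 3 without the variance trend and 1 to 6 with 1 library left out. Of all tested genes 553 stood there, and 426 to 743 with 1 library left out. Groups apart were 7, and 8 to 13 with 1 library left out, 13 without NC replicate 2 or KD replicate 3, where fewer values make overlap rarer. The share of all tested genes apart with 1 library left out is not given here. These counts therefore cannot be read against the 9.79% of the main fit. The median log2 fold change was -0.032 to 0.092 for mitotic and 0.047 to 0.090 for transport kinesins with 1 library left out. Summed NC levels per kb were 6023 for mitotic and 3514 for transport kinesins with coding length, 4916 and 2144 with the mean mRNA length, and 4492 to 4719 and 2020 to 2060 with 1 library left out. The cause of the other shifts was not tested. Levels and orders that turn with the length used stand beside those results.

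Over 32 kinesins, 537 comparisons with an alternative gave 501 of the same direction and side of the threshold, 2 newly past it and 34 of opposite direction. With 1 library left out the log2 fold change ran from -0.057 to 0.090 for KIF7, -0.038 to 0.56 for KIF12, -0.16 to 0.073 for KIF20B, -0.014 to 0.18 for KIF21A, -0.25 to 0.052 for KIF18B, -0.25 to 0.11 for KIF22, -0.061 to 0.040 for KIF3B, -0.016 to 0.11 for KIF5B, -0.012 to 0.12 for KIF15, -0.054 to 0.085 for KIF20A, -0.37 to 0.038 for KIF17 and -0.0018 to 0.21 for KIF1C. After the GC and length adjustment, block or not, KIF7 was at -0.079, KIF3B at -0.012, KIF20B at 0.016, KIF3A at 0.017 and KIF1C at -0.0049. KIF3B was at -0.00013 with TMM-like rescaling and at -0.012 with quantile normalization.

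With the replicate block alone 26 of all genes were called in place of 19, and 0 kinesins were called. At an unadjusted p below 0.05 stood 6 kinesins and 676 of all 11986 tested genes. After the group means were subtracted, same-numbered libraries correlated at 0.109, 0.111 and 0.0872 and others at -0.083 to -0.021, each library best with its own number, a hint from the data and not the design, and not every pair passed 0.1. That subtraction makes the correlations of a library sum to near 0. The negative values therefore follow from the positive ones and add nothing separate. The adjusted p of KIF11 ranged from 0.00715 to 0.999 over the alternatives. Members with values of a few reads cannot show changes of less than several-fold.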
